A study of Mus musculus with 8 samples.

Results

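The genes described are 31 genes of cholesterol and fatty acid synthesis and of its control, taken by matching a list of symbols to the gene names of the deposited table. All 31 symbols matched a row, of 15452 named rows in the table, and all 31 passed the filter on low counts that left 13666 genes for testing. RNA-seq measured them in bEnd.3 cells, a line of mouse brain endothelial cells immortalised with polyoma middle T antigen and kept in medium with fetal bovine serum. Cells of 4 cultures received recombinant Norrin at 200 ng/ml and cells of 4 other cultures received vehicle, PBS with BSA, although the treatment labels of the vehicle samples read untreated. Treatment began 24 h after seeding and lasted 24 h in both groups, per the labels, which name 4 biological replicates a group and say no more of how they were separated. P-values thus cover only the differences among these cultures, on 1 immortalised line.

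Cholesterol is built from acetyl-CoA through mevalonate, the isoprenoid diphosphates, squalene and lanosterol, and fatty acids from acetyl-CoA through malonyl-CoA. Most of the enzymes are encoded by targets of the sterol regulatory element-binding proteins (SREBPs), which the carrier SCAP brings from the endoplasmic reticulum to the Golgi when membrane sterol is low and which INSIG proteins hold back when it is high. Cells that take up lipoproteins from serum make less sterol themselves. Norrin is a secreted ligand of Frizzled-4 on retinal and brain endothelium, where it stabilises beta-catenin, and the study asked which genes it induces.

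Library totals lay between 13445380 and 14905863 counts under Norrin and between 12463942 and 15220576 counts under vehicle. The response to Norrin was visible in Axin2, a beta-catenin target outside the lipid genes. Axin2 measured 6.72 ± 1.04 CPM under Norrin and 0.360 ± 0.214 CPM under vehicle (SD, n = 4 per group, edgeR adjusted p = 1.18e-09). Its counts in vehicle replicates 1 to 4 were 8, 2, 4 and 5, so the vehicle level rests on few reads. CPM is a gene's count scaled to the library's total over tested genes, with TMM factors. The endothelial label was met by 8 of 8 markers, each between 134 and 2087 CPM on average under Norrin and between 146 and 2111 CPM under vehicle. Of these 8, Esam rose under Norrin (log2 fold change 0.31, edgeR adjusted p = 1.79e-05), and the other 7 did not pass at 0.05. Of 4 markers listed for each other cell type, 2 of mural cells, 2 of fibroblasts, 1 of microglia, 1 of neurons, 1 of adipocytes and 0 of astrocytes matched a row, the highest being Pdgfra at 3.81 CPM under Norrin and 4.08 CPM under vehicle. In these bulk cultures fewer cells of a kind and less RNA per cell cannot be told apart.

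None of the 31 lipid genes passed the test after adjustment over all 13666 genes (edgeR quasi-likelihood test, two-sided, adjusted p under 0.05), against a background of 2.17% of tested genes called. Of the 31, 13 lay above 0 and 18 below 0 on the log2 scale (Norrin over vehicle), with a median of −0.03, against 0.005 over all tested genes. The median size of the log2 fold change, sign aside, was 0.102 for the lipid genes and 0.107 for all tested genes. At an unadjusted p under 0.05 by the edgeR test, 2 of the 31 lipid genes passed, Insig1 and Stard4, against 11.3% of tested genes in either direction. Both were lower under Norrin, and 5.80% of tested genes were lower by that rule. The same 2 were the only members whose 4 Norrin libraries lay wholly below the 4 vehicle libraries, against 3.58% of tested genes, and 0 lay wholly above. Of tested genes, 7.01% lay wholly above or wholly below. The 31 were listed with earlier results of these data known, so these shares are description only. DESeq2 called 1 member, Insig1, and limma-voom 0. With 1 library left out, 1 member, Insig1, was called without Norrin replicate 3, and 0 were called without any of the other 7 libraries, including Norrin replicate 4, whose removal raised the calls over all genes to 452.

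The size of change that these data allow can be read from the 95% intervals. All 31 intervals lay within a 2-fold change in either direction and 23 within a 1.5-fold change, while over all tested genes 11703 and 9144 of 13666 did. Precision followed the counts. Fasn, with a mean of 8342 reads per library, had a standard error of 0.04 on the log2 scale, and Idi1, with 35 reads, had 0.32.

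**Figure D1:**
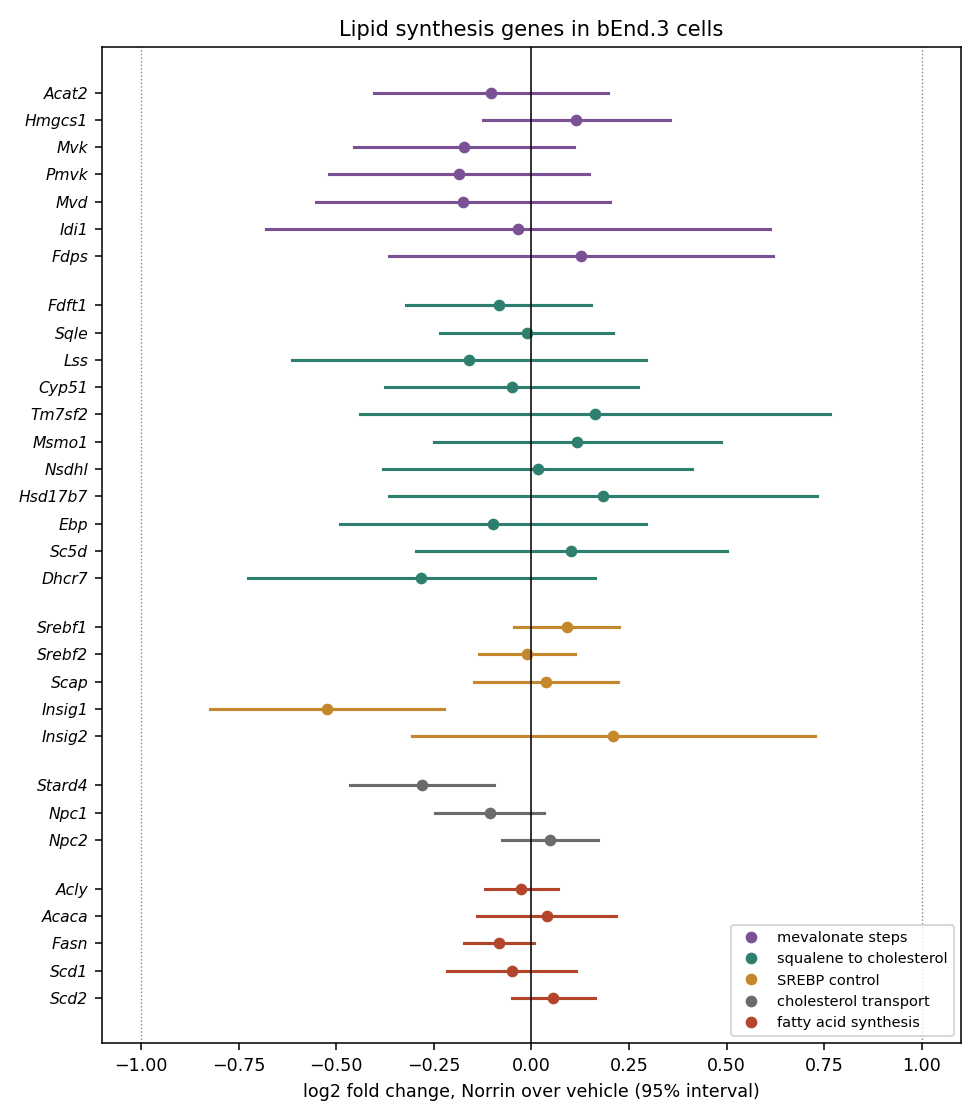
Log2 fold change of each of the 31 genes, Norrin over vehicle, as points with 95% intervals, grouped by role, with dotted lines at a 2-fold change (−1 and 1). All intervals lie inside the dotted lines, and those of Insig1 (−0.82 to −0.22) and Stard4 (−0.47 to −0.10) are the only ones that leave out 0.

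Among the genes that control the pathway, Insig1 showed the lowest log2 fold change of all 31. It encodes an endoplasmic reticulum protein that retains SCAP and is itself a known target of SREBPs. Insig1 measured 9.69, 10.2, 12.1 and 8.56 CPM in Norrin replicates 1 to 4, against 14.1, 16.4, 14.5 and 13.2 CPM in vehicle replicates 1 to 4. The groups did not overlap, with the highest Norrin library below the lowest vehicle library. Its means were 10.1 ± 1.47 CPM under Norrin and 14.6 ± 1.33 CPM under vehicle (SD, n = 4 each), and its log2 fold change of −0.52 ± 0.15 SE missed the threshold at an edgeR adjusted p = 0.0553. The adjusted p ran from 0.0243 to 0.202 over 14 alternatives. It passed in 3 of the 14, among them DESeq2 (adjusted p = 0.0243) and the fit without Norrin replicate 3, the highest Norrin library (adjusted p = 0.03435, log2 −0.62).

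Insig2, which encodes the second INSIG protein, had the highest log2 fold change of the 31, with no difference beyond its spread. It measured 7.72, 4.16, 5.49 and 3.10 CPM in Norrin replicates 1 to 4, against 3.67, 4.53, 4.25 and 5.30 CPM in vehicle replicates 1 to 4. The vehicle values all lay between the lowest and the highest Norrin value, and Norrin replicate 1 was the highest of all 8. The log2 fold change was 0.21 ± 0.25 SE with an interval of −0.31 to 0.73 (adjusted p = 0.853), and without Norrin replicate 1 it turned to −0.06.

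Both SREBP genes were well measured, and neither was called. Srebf2, whose product mainly drives sterol synthesis, measured 89.6, 98.7, 92.2 and 99.0 CPM in Norrin libraries, against 90.0, 97.8, 95.01 and 99.7 CPM in vehicle libraries. Its log2 fold change was −0.012 with an interval of −0.13 to 0.11. Srebf1, whose product mainly drives fatty acid synthesis, measured 91.2, 109, 95.8 and 99.5 CPM in Norrin libraries, against 95.04, 101, 89.0 and 86.2 CPM in vehicle libraries. Its groups overlapped and its log2 fold change was 0.09 ± 0.07 SE, with an interval of −0.04 to 0.22 (edgeR adjusted p = 0.700). Over 14 alternatives the log2 fold change of Srebf1 ran from 0.04 to 0.13. Scap, the SREBP escort gene, averaged 70.3 ± 10.6 CPM under Norrin and 68.5 ± 5.59 CPM under vehicle, a log2 fold change of 0.04 ± 0.09 SE. The counts do not separate the Srebf1 transcripts for the SREBP-1a and SREBP-1c proteins.

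**Figure D2:**
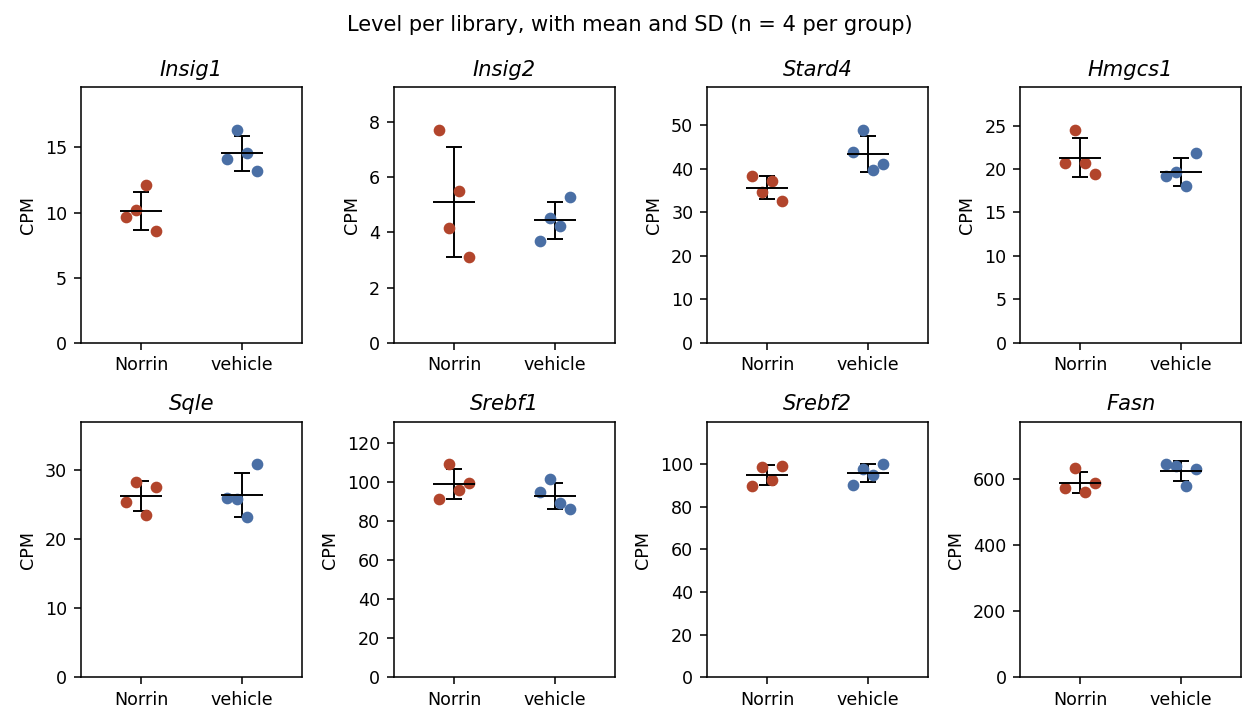
CPM of 8 of the genes in each library (points, replicates 1 to 4 from left to right), with the mean and SD as black bars, n = 4 per group. Insig1 and Stard4 show Norrin points wholly below the vehicle points, and the other 6 genes overlap.

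Promoter sequence was not used to choose the genes. RefSeq promoter sequences (GRCm38.p6, 250 bases before to 50 after each start) were matched by symbol for 24 of the 31 genes, 32 promoters in all. Fdps, Fdft1, Sqle, Stard4, Npc1, Scd1 and Scd2 were not matched. The NF-Y box CCAAT, bound by a factor that works beside SREBPs, was found on either strand in 22 of 32 promoters (68.8%). The share was 54.2% in promoters of the other lipid genes described below, 37.6% in those of tested genes and 37.4% in all promoters. The Sp1 box GGGCGG was in 25 of 32 (78.1%), against 64.4% for the other lipid genes, 60.2% for tested genes and 35.7% of all. The sterol regulatory element TCACNCCAC was in 1 promoter, that of Hmgcs1 (3.12%). Its share was 3.39% for the other lipid genes, 1.11% for tested genes and 1.24% of all promoters. The TCF/LEF motif CTTTGAT was in 1 promoter, that of Npc2 (3.12%). Its share was 0% for the other lipid genes, 2.69% for tested genes and 3.73% of all promoters. All motifs were searched on both strands, no test was made, and a match is a run of letters, not a site shown to be bound. Only exact letters within these bases were sought, so the lack of a match does not show that a gene lacks an element.

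The 250 bases upstream of the start are printed for 3 genes on the plus strand, with matches of the 4 motifs in capitals. Insig1 (chr5:28071162-28071411) is shown as the gene with the lowest log2 fold change. Hmgcs1 (chr13:119690101-119690350) is shown as the only one of the 24 matched genes with the exact letters searched for the sterol element. Srebf2 (chr15:82147019-82147268) is shown as the regulator that lay closest to no difference.
Insig1: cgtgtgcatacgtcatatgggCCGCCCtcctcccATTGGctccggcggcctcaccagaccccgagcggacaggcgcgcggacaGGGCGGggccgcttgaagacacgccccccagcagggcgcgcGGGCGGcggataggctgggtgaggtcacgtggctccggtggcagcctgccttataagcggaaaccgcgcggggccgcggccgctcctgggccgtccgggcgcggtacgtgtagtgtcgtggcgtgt
Hmgcs1: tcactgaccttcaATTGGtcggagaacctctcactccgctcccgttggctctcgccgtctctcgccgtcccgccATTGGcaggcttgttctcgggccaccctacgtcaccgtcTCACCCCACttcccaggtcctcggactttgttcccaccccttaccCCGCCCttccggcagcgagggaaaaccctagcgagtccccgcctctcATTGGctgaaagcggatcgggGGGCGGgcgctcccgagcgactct
Srebf2: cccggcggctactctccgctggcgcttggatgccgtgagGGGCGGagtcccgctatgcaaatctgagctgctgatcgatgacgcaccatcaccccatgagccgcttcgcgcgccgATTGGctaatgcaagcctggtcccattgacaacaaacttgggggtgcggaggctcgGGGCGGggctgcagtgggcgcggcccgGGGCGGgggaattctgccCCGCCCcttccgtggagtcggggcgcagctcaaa
Insig1 carries 1 CCAAT box, read as ATTGG on this strand, and 3 Sp1 boxes. Hmgcs1 carries 3 CCAAT boxes, 2 Sp1 boxes and the sterol element. Srebf2 carries 1 CCAAT box and 4 Sp1 boxes. In the expression data these 3 genes had log2 fold changes of −0.52, 0.11 and −0.012, in that order.

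In the mevalonate segment, 0 of 7 genes were called, 2 lay above 0 and 5 below 0, with a median log2 fold change of −0.10. The segment's summed level was 72.5 ± 2.60 CPM under Norrin and 75.8 ± 3.70 CPM under vehicle (SD, n = 4). Hmgcs1, encoding HMG-CoA synthase and a classical SREBP2 target, measured 20.7, 24.5, 20.6 and 19.4 CPM in Norrin libraries, against 19.2, 19.7, 18.0 and 21.9 CPM in vehicle libraries. The groups overlapped and the log2 fold change was 0.11 ± 0.12 SE (adjusted p = 0.818). Acat2, encoding the cytosolic thiolase that opens the pathway, measured 16.9, 12.8, 12.4 and 13.5 CPM in Norrin libraries, against 15.9, 11.5, 15.0 and 17.4 CPM in vehicle libraries, with overlapping groups and a log2 fold change of −0.10 ± 0.15 SE.

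The 3 enzymes that turn mevalonate into isopentenyl diphosphate had log2 fold changes below 0, and none passed. Mvk, the mevalonate kinase gene, measured 12.4, 12.1, 16.9 and 17.1 CPM in Norrin libraries, against 17.0, 16.8, 16.3 and 15.8 CPM in vehicle libraries. Norrin replicates 1 and 2 lay below every vehicle library and replicates 3 and 4 within or above their range. Its log2 fold change was −0.17 ± 0.14 SE (adjusted p = 0.733). Pmvk, the phosphomevalonate kinase gene, had a log2 fold change of −0.19 ± 0.16 SE and Mvd, the decarboxylase gene, −0.18 ± 0.18 SE. Their intervals were −0.52 to 0.15 and −0.55 to 0.20.

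At the isoprenoid end the counts were low. Idi1, the isopentenyl diphosphate isomerase gene, measured 2.98, 2.26, 2.27 and 2.58 CPM in Norrin libraries, against 4.07, 2.55, 1.54 and 2.25 CPM in vehicle libraries. Vehicle replicate 1 was the highest and vehicle replicate 3 the lowest of all 8, so the vehicle group spanned the whole Norrin group. Fdps, the farnesyl diphosphate synthase gene, averaged 4.16 ± 0.894 CPM under Norrin and 3.82 ± 0.398 CPM under vehicle, with a log2 fold change of 0.13 ± 0.24 SE.

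From squalene to cholesterol, 0 of 11 genes were called, 5 lay above 0 and 6 below 0, with a median of −0.012. The summed level was 109 ± 5.51 CPM under Norrin and 111 ± 9.04 CPM under vehicle (SD, n = 4). Sqle, encoding squalene epoxidase, a rate-limiting enzyme of the later pathway, measured 25.5, 28.3, 23.5 and 27.6 CPM in Norrin libraries, against 26.0, 25.8, 23.2 and 30.9 CPM in vehicle libraries. Its log2 fold change was −0.012 with an interval of −0.23 to 0.21. Fdft1, the squalene synthase gene, averaged 24.8 ± 1.75 CPM under Norrin and 26.3 ± 4.49 CPM under vehicle (−0.08 ± 0.12 SE). Cyp51, the lanosterol demethylase gene, averaged 10.8 ± 2.07 CPM under Norrin and 11.1 ± 0.757 CPM under vehicle (−0.05 ± 0.16 SE).

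Dhcr7, whose product makes cholesterol from its last precursor in the Kandutsch-Russell branch, had the lowest log2 fold change of the 11. It measured 4.40, 4.16, 5.34 and 7.31 CPM in Norrin libraries, against 5.75, 6.80, 5.47 and 7.79 CPM in vehicle libraries. Norrin replicates 1 to 3 lay below every vehicle library, while Norrin replicate 4 was second only to vehicle replicate 4. The log2 fold change was −0.28 ± 0.22 SE with an interval of −0.73 to 0.16 (adjusted p = 0.723), and it was −0.47 without Norrin replicate 4.

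Lss, the lanosterol synthase gene, measured 7.18, 5.33, 5.56 and 5.09 CPM in Norrin libraries, against 8.94, 7.43, 4.76 and 4.82 CPM in vehicle libraries. Here vehicle replicates 1 and 2 stood above every Norrin library and vehicle replicates 3 and 4 below every one of them. Hsd17b7, a sterol ketoreductase gene, was highest in vehicle replicate 4 at 4.58 CPM, and its log2 fold change was 0.18 ± 0.27 SE. Tm7sf2, a sterol reductase gene, averaged 2.75 ± 0.387 CPM under Norrin and 2.47 ± 0.622 CPM under vehicle (0.16 ± 0.29 SE).

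The other 4 enzymes of this segment had adjusted p-values between 0.886 and 0.989. Msmo1, a methylsterol oxidase gene, averaged 8.84 ± 1.69 CPM under Norrin and 8.15 ± 1.21 CPM under vehicle. Sc5d, a sterol desaturase gene, averaged 7.91 ± 1.13 CPM under Norrin and 7.34 ± 1.80 CPM under vehicle. Nsdhl and Ebp, which encode a decarboxylating dehydrogenase and a sterol isomerase, had log2 fold changes of 0.02 ± 0.19 SE and −0.10 ± 0.19 SE.

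Of the 3 cholesterol transport genes, 0 were called, and Stard4 came nearest. Its product carries cholesterol between membranes through the cytosol. Stard4 measured 38.4, 34.7, 37.2 and 32.6 CPM in Norrin replicates 1 to 4, against 43.9, 49.0, 39.7 and 41.1 CPM in vehicle replicates 1 to 4. The groups did not overlap, but the highest Norrin library and the lowest vehicle library were close to each other. The log2 fold change was −0.28 ± 0.09 SE with an interval of −0.47 to −0.10, and the edgeR adjusted p of 0.115 ran from 0.0781 to 0.408 over 14 alternatives, none of which called it.

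Npc1 and Npc2 encode the membrane and the soluble protein that release cholesterol from lysosomes. Npc1 averaged 86.1 ± 5.18 CPM under Norrin and 92.8 ± 8.64 CPM under vehicle, and Npc2 104 ± 6.56 CPM under Norrin and 101 ± 4.13 CPM under vehicle. Their log2 fold changes were −0.11 ± 0.07 SE and 0.05 ± 0.06 SE, with overlapping groups for both.

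The fatty acid synthesis genes had the smallest spread between replicates of the 5 roles, with a median CV of 4.51% under Norrin and 7.39% under vehicle. None of the 5 genes was called, 2 lay above 0 and 3 below 0, and their summed level was 1344 ± 49.5 CPM under Norrin and 1371 ± 57.8 CPM under vehicle (SD, n = 4). Fasn, encoding fatty acid synthase, measured 571, 634, 561 and 588 CPM in Norrin libraries, against 644, 640.4, 579.8 and 631 CPM in vehicle libraries. Norrin replicates 2 and 4 lay within the vehicle range, and Norrin replicates 1 and 3 below it. Its log2 fold change was −0.08 ± 0.04 SE with an interval of −0.17 to 0.006 (adjusted p = 0.496).

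Acly, whose product supplies cytosolic acetyl-CoA from citrate, averaged 298 ± 11.3 CPM under Norrin and 303 ± 8.13 CPM under vehicle (−0.03 ± 0.05 SE). Acaca, encoding acetyl-CoA carboxylase, averaged 38.6 ± 1.74 CPM under Norrin and 37.6 ± 2.78 CPM under vehicle (0.04 ± 0.09 SE). The intervals of Acly and Acaca, −0.12 to 0.07 and −0.14 to 0.22, lay within a 1.5-fold change.

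Scd1 and Scd2 encode stearoyl-CoA desaturases of related sequence, and how reads shared between them were counted is not given in the sources used here. Scd2 measured 351, 399, 385 and 352 CPM in Norrin libraries, against 395, 354, 349 and 333 CPM in vehicle libraries. Scd1 averaged 47.0 ± 1.55 CPM under Norrin and 48.7 ± 4.23 CPM under vehicle. Their log2 fold changes were 0.06 ± 0.05 SE and −0.05 ± 0.08 SE, and the groups overlapped for both genes.

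Levels between genes can be compared only per length, for which the authors' deposited table gives 1 RPKM value per group. By that table Scd2 was the highest of the 31 genes, at 344 RPKM under Norrin and 332 RPKM under vehicle. Npc2 followed at 229.7 RPKM under Norrin and 223 RPKM under vehicle. Scd1 stood at 43.8 RPKM under Norrin and 45.5 RPKM under vehicle in the authors' deposited table, below Scd2 in both groups. Per length, the later sterol enzymes were the least abundant group, with a median of 7.35 RPKM over the 11 genes under vehicle, against 12.4 RPKM for the mevalonate genes and 83.0 RPKM for the fatty acid genes, from the same table. Tm7sf2 was lowest of all at 2.16 RPKM under Norrin and 1.92 RPKM under vehicle in the authors' deposited table. Of the 31 genes, 17 lay above the median vehicle RPKM of all named rows.

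**Figure D3:**
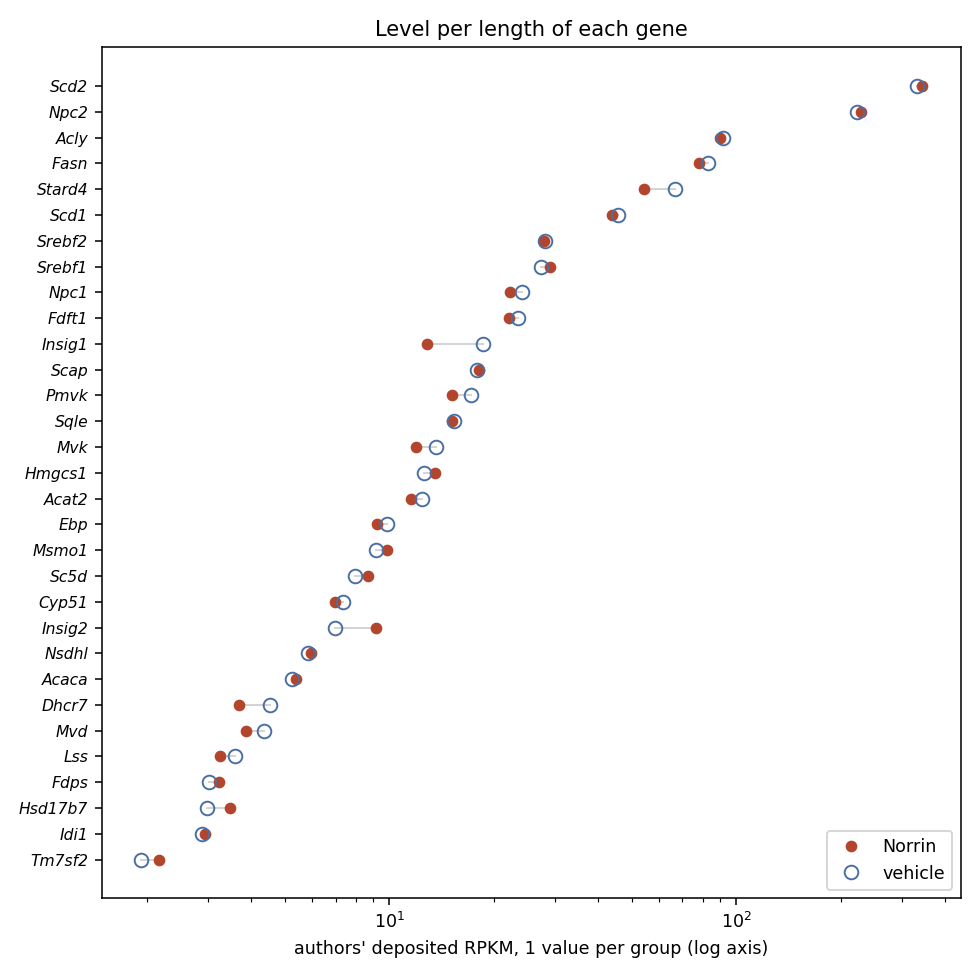
The authors' deposited RPKM of each gene under Norrin (filled) and vehicle (open), 1 value per group with no error, on a log axis, ordered by the vehicle value. Scd2 leads in both groups, Tm7sf2 is lowest, and the widest gaps between the groups are those of Insig1 and Insig2. For Insig2 the deposited ratio, Norrin over vehicle, was 1.31, while the counts gave a fold change of 1.16 with overlapping groups.

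Of the 18 enzymes from Acat2 to Dhcr7, 10, 6, 5 and 11 lay above their own Norrin mean in Norrin replicates 1 to 4, and 7, 11, 6 and 13 above their own vehicle mean in vehicle replicates 1 to 4. Vehicle replicate 4 had the largest summed sterol enzyme level, 202 CPM, and Norrin replicate 3 the smallest, 175 CPM. Over all tested genes between 49.9% and 51.2% lay above their group mean in each library. The groups' summed sterol enzyme levels overlapped, at 181 ± 6.66 CPM under Norrin and 187 ± 11.1 CPM under vehicle (SD, n = 4).

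**Figure D4:**
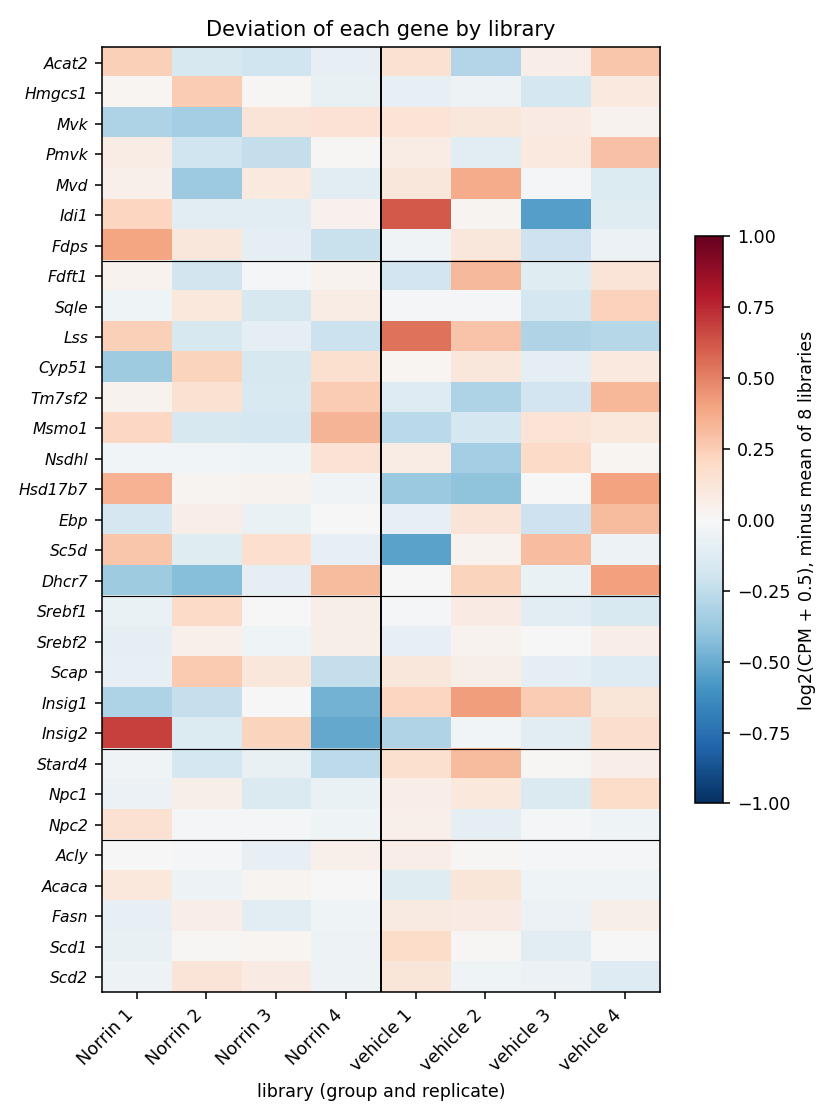
Deviation of each gene in each library from its mean over the 8 libraries, as log2(CPM + 0.5), with Norrin libraries left of the black line and roles separated by thin lines. Deviations run from −0.55 to 0.68, the highest being Insig2 in Norrin replicate 1. The row of Insig1 is below its mean under Norrin and above it under vehicle, with Norrin replicate 3 almost at the mean.

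Of 59 other genes of lipid metabolism listed, 52 matched a row and 50 could be tested, of which 1 rose and 1 fell, against the background of 2.17%. At an unadjusted p under 0.05, 4 were higher and 4 lower, which is 8 of 50 against 11.3% of tested genes. In 6 of the 50 the Norrin libraries lay wholly to 1 side of the vehicle libraries, against 7.01% of tested genes. This list was drawn up with earlier results of these data known, so its shares are description only.

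Pparg, encoding a nuclear receptor for fatty acid ligands, fell. It measured 8.33, 9.34, 7.83 and 8.26 CPM in Norrin libraries, against 13.4, 16.6, 15.0 and 11.3 CPM in vehicle libraries, with no overlap. Its log2 fold change was −0.74 ± 0.15 SE (edgeR adjusted p = 0.00452, and up to 0.0373 over 14 alternatives, all of which kept the call). Fabp4, a fatty acid carrier gene also listed here among the adipocyte markers, averaged 1.83 CPM under Norrin and 3.20 CPM under vehicle. It did not pass (edgeR adjusted p = 0.237), and the other 3 listed adipocyte markers matched no row. Any link between the Fabp4 and Pparg levels was not tested.

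Ch25h, encoding the enzyme that makes 25-hydroxycholesterol, an oxysterol that holds SREBPs back through INSIG proteins, rose. It measured 34.7, 38.3, 33.7 and 39.6 CPM in Norrin libraries, against 27.6, 24.5, 29.3 and 29.5 CPM in vehicle libraries, again with no overlap. Its log2 fold change was 0.40 ± 0.10 SE (adjusted p = 0.0188), but it missed the threshold when either Norrin replicate 2 (adjusted p = 0.08045) or vehicle replicate 2 (adjusted p = 0.09496) was left out.

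Abca1, the cholesterol efflux gene of the same list, did not pass. It measured 770.4, 759.9, 725 and 792 CPM in Norrin libraries, against 740.0, 667, 713 and 744 CPM in vehicle libraries. The groups overlapped and the log2 fold change was 0.09 ± 0.04 SE (adjusted p = 0.378).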

How the data were processed

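The authors deposited a table of estimated counts per gene for 8 libraries, not normalised, with 1 RPKM value per group and their ratio, Norrin over vehicle. The submitters' processing notes list STAR and no version. Not given in the sources used here: genome build, annotation, counting tool, strand use. RNA was ribosome-depleted, per the labels' protocols. The lowest vehicle RPKM in the table was 0.1, so genes silent under vehicle are not analysed here.

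Of 123616 counts, 763 were not whole, and all were rounded. A row with no gene name was left out. Groups come from the sample titles. Tests used edgeR 4.0.16 under R 4.3.3 (low counts removed by filterByExpr, TMM, robust quasi-likelihood fit), adjusted by Benjamini-Hochberg over 13666 genes. Standard errors came from the fitted weights and moderated dispersion, with 95% t intervals. The step was tested on counts simulated with the dispersions of the same fit, so that test does not check the model itself. Alternatives were DESeq2 1.42.0, limma-voom (limma 3.58.1), DESeq2 size factors, other filters, a replicate block, each library left out and a threshold of 0.01. A level of 3 counts lay between 0.193 and 0.241 CPM, for counting error only. The chi-square per degree of freedom between libraries of a group ran from 5.51 to 14.6, so none agreed within sampling noise. By the naming rule every listed gene is named, and other lipid genes past the threshold plus Abca1; other genes of the rule are not reported here. Fabp4, Soat1, Abcg1, Erlin1 and Lpin1 were named after their values were seen. Motifs were searched in RefSeq promoters. Members and lists were chosen with earlier results of these data known.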

Additional observations from a re-analysis of the deposited data

Results flagged for a closer look

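In 3 of 68 groups of 4 libraries checked, 1 library stood far from the other members of its group, where chance gives about 1 in 20. Norrin replicate 1 was high for Hsd17b7, at 4.40 CPM with the nearest Norrin library at 3.44 CPM, and for Npc2, at 114 CPM with the nearest at 102 CPM. Norrin replicate 4 was high for Nsdhl, at 7.16 CPM against 6.30 CPM. None of these 3 genes was called.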

How the results depend on the processing

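The count of 0 called members became 1, Insig1, by DESeq2 and with a replicate block (adjusted p = 0.0466), and ran from 0 to 1 with 1 library left out. It was 0 with DESeq2 size factors, limma-voom, other filters and a threshold of 0.01. Over all genes the block called 402, and replicate numbers did not pair the libraries (correlations of deviations from −0.03 to 0.09). Calls over all genes ran from 206 to 452 with 1 library left out and were 171 at 0.01. Among other lipid genes, 4 were called by DESeq2 (Soat1 and Abcg1 beside Pparg and Ch25h), 1 at 0.01, and from 1 to 3 with 1 library left out, Ch25h being lost when Norrin replicate 2 or vehicle replicate 2 was dropped. The cause of these shifts was not tested. Of the 31 members, 13 changed sign in at least 1 alternative, all at log2 0.21 or less in size and none called. With 1 library left out the log2 fold changes ran for Insig2 from −0.059 to 0.39, for Fdps from −0.018 to 0.22, for Sc5d from −0.037 to 0.25, for Scap from −0.049 to 0.12, for Nsdhl from −0.091 to 0.095, for Srebf2 from −0.038 to 0.017, for Sqle from −0.072 to 0.068, for Idi1 from −0.22 to 0.26, for Cyp51 from −0.14 to 0.055, for Scd1 from −0.095 to 0.0086, for Fdft1 from −0.15 to 0.024, for Ebp from −0.18 to 0.0064, for Lss from −0.29 to 0.033. Idi1 was at 0.065 by limma-voom and 0.011 with the block. Hsd17b7, Tm7sf2 and Idi1 had no value under the stricter filter. A 1.5-fold change lay inside the interval of 8 members, so a change of that size was not excluded for them.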

Other observations

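The ratio of Insig1 to Insig2, looked at after both values were seen, was 1.25, 2.46, 2.20 and 2.76 in Norrin replicates 1 to 4, against 3.85, 3.61, 3.42 and 2.48 in vehicle replicates 1 to 4. The groups overlapped, since Norrin replicate 4 lay above vehicle replicate 4, and no test was made. Soat1, which encodes an enzyme that esterifies cholesterol for storage, averaged 75.7 ± 6.11 CPM under Norrin and 63.4 ± 2.28 CPM under vehicle (0.26 ± 0.07 SE, edgeR adjusted p = 0.0501). The sterol efflux gene Abcg1 averaged 30.6 ± 3.21 CPM under Norrin and 38.3 ± 2.69 CPM under vehicle (−0.32 ± 0.10 SE, adjusted p = 0.0753). Erlin1, encoding an endoplasmic reticulum protein that binds cholesterol, averaged 17.1 ± 1.45 CPM under Norrin and 13.1 ± 1.56 CPM under vehicle (0.39 ± 0.13 SE, adjusted p = 0.152). Groups did not overlap for these 3 genes, which were named after their values were seen, as was Lpin1. Lpin1, a phosphatidate phosphatase gene, was at −0.45 ± 0.15 SE (adjusted p = 0.130) with overlapping groups.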
